A study of Mus musculus with 14 samples.

Results

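Thalamic nuclei are marked by a small set of genes. Here 9 of them (Tcf7l2, Lef1, Rora, Slc17a6, Prkcd, Rgs16, Calb2, Synpo2 and Plekhg1) were followed through brain RNA sequencing of 14 female mice aged 23 months. The genes were taken by symbol from the 43346 genes of the count table, and each symbol matched 1 row. The tissue was a cross-sectional piece of brain that included hippocampus and cortex, so the thalamus was not the region the dissection aimed at. Every gene had reads in every mouse, the lowest count being 446 for Lef1 in mouse 16.

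Mice of 3 groups on a C57BL/6;SJL background were compared. NTG mice (n = 4, mice 7 to 10) were non-transgenic littermates, and APP/PS1 mice (n = 5, mice 16 to 20) carried familial Alzheimer's disease mutations in both APP and PS1. CP2-treated APP/PS1 mice (n = 5, mice 21 to 25) had the same genotype and received CP2, a tricyclic pyrone that partially inhibits mitochondrial complex I, at 25 mg/kg/day in drinking water from 9 months of age. The labels call the 2 groups without CP2 non-treated, while the treatment protocol describes vehicle for them. The promoters that drive the transgenes are not given in the sources used here, and NTG mice given CP2 were not analysed here.

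The thalamus passes sensory and motor signals to the cortex through excitatory relay neurons, which load glutamate into vesicles with the transporter encoded by Slc17a6 (VGLUT2), whereas most cortical and hippocampal excitatory neurons use Slc17a7 (VGLUT1). Tcf7l2 and Lef1 are related DNA-binding partners of beta-catenin in Wnt signalling, and Tcf7l2 keeps the identity of thalamic and habenular neurons. Rora encodes a nuclear receptor, Prkcd a protein kinase C, Rgs16 a protein that ends G protein signals, Calb2 the calcium-binding protein calretinin, Synpo2 an actin-binding protein and Plekhg1 a guanine nucleotide exchange factor. None of them is found in the thalamus alone: Calb2 also marks cortical interneurons, Rora is used by many neurons and glia, and Lef1 by brain endothelium.

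Total counts per mouse ranged from 70548781 to 106235625, with medians of 84626964 in NTG, 86825243 in APP/PS1 and 86141743 in CP2-treated APP/PS1 mice, so that 1 count was worth 0.00941 to 0.0142 CPM, a count scaled to the size of its library. The share of counts on the ribosomal RNA-like genes Yam1 and AY036118 ran from 2.40% in mouse 16 to 7.50% in mouse 8. Markers of the dissected regions were present in every mouse, with summed levels of 259.3 to 374.2 CPM for 8 genes of the hippocampal CA fields, 309.1 to 441.5 CPM for 8 dentate gyrus genes and 464.8 to 685.4 CPM for 13 genes of the cortical layers. The library of APP/PS1 mouse 16 stood apart. The 11 striatal genes, among them the dopamine receptors Drd1 and Drd2, summed to 3178 CPM there and to between 342.7 and 571 CPM in the other 13 mice. Mouse 16 was also the lowest for 5 of 8 dentate and 4 of 7 tested CA genes (18% of all genes), and the highest for 1 and 2. Named after their values were seen, C1ql2 and Fibcd1 stood there at 1.67 and 14.8 CPM, against at least 14.1 and 25.5 CPM elsewhere. Its CA sum of 374.2 CPM held 229.3 CPM of Wfs1, which had at most 147.4 CPM elsewhere. The 9 genes are therefore given with and without mouse 16, and other genes where leaving it out turned a direction, changed a call or moved a value by over 1.5 times.

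The genes lie on 8 chromosomes of mm10. Rgs16 spans chr1:153740349-153745468, Synpo2 chr3:123076519-123236149, Lef1 chr3:131110471-131224356 and Slc17a6 chr7:51621830-51671125. Calb2 spans chr8:110142539-110168206, Rora chr9:68653786-69388246, Plekhg1 chr10:3740364-3967303, Prkcd chr14:30595356-30626210 and Tcf7l2 chr19:55741810-55933654. Their Ensembl identifiers in the table are, in this order, ENSMUSG00000026475, ENSMUSG00000050315, ENSMUSG00000027985, ENSMUSG00000030500, ENSMUSG00000003657, ENSMUSG00000032238, ENSMUSG00000040624, ENSMUSG00000021948 and ENSMUSG00000024985. The authors counted a read on every gene it overlapped, and Rgs16 overlaps Gm28513, which reached 485 counts in 1 mouse against at least 640 for Rgs16. The genes that overlap Rora, Plekhg1 and Tcf7l2 reached at most 317, 47 and 23 counts, against at least 7127, 1455 and 463 counts for these 3 genes.

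Because Tcf7l2 and Lef1 bind DNA at a shared motif, the start regions of the 9 genes were searched for it. RefSeq start windows (GRCm38.p6), mostly the bases before each start, were found for 8 genes, 14 windows in all, and none for Calb2. The letters CTTTGA or, on the other strand, TCAAAG stood in 2 of the 14 windows (14.29%), and in 16% of all 32851 RefSeq windows. The half-site of the ROR receptors, AGGTCA or TGACCT, stood in 0 of the 14 windows and in 16.26% of all windows. Neither motif contains the other. The 250 bases before the start are shown for these 2 windows, Prkcd at chr14:30626209-30626458 on the minus strand and an inner start of Lef1 at chr3:131156044-131156293 on the plus strand, with the matches in capitals.
Prkcd: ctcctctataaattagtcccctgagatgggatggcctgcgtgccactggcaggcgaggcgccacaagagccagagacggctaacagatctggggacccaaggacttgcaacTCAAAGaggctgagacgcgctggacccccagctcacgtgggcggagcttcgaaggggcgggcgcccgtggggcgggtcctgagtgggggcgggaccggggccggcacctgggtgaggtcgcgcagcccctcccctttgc
Lef1: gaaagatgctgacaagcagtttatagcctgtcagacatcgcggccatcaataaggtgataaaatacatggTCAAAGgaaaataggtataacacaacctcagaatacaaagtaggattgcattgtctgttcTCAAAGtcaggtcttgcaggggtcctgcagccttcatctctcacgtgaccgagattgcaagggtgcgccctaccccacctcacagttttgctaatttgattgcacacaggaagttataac
The Prkcd match begins 139 bases before the start, and those of Lef1 begin 180 and 120 bases before it. A match of 6 letters is a description of the sequence, and binding was not measured.

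Per kilobase of coding length, in the authors' RPKM, the genes spanned a wide range of levels over the 14 mice. Calb2 had the highest level (35.2 ± 10.05 RPKM, mean ± SD, n = 14), followed by Slc17a6 (21.45 ± 6.02), Prkcd (11.8 ± 5.91), Rora (8.80 ± 1.76) and Rgs16 (6.47 ± 2.42). Plekhg1 (4.07 ± 1.31), Tcf7l2 (3.49 ± 1.03), Synpo2 (2.09 ± 0.788) and Lef1 (0.98 ± 0.257) were lower. In 7 of the 8 neighbouring pairs in this order the ranges of mean ± SD overlapped, and Lef1 stood clear of Synpo2. All further levels are CPM scaled by TMM factors, which compare mice for 1 gene and not genes with each other.

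APP/PS1 mouse 16 was the lowest of the 14 mice for 7 of the 9 genes, the exceptions being Prkcd, where it was the third lowest, and Rgs16, where it was the second lowest. For comparison, it was the lowest of the 14 for 18% of the 16521 genes tested in any comparison. Its deficit was uneven. Tcf7l2 stood at 13.7% of the median of the other 13 mice, Slc17a6 at 15.9%, Calb2 at 27.3% and Plekhg1 at 35.1%, whereas Prkcd, Rgs16, Synpo2, Lef1 and Rora kept 44.9% to 55.7%. NTG mouse 10 was the opposite, with the highest level of the 14 mice for 6 of the 9 genes (7.03% of all genes) and a place among the 3 highest for all 9. CP2-treated mouse 23 was the highest for 2 genes (3.8% of all genes) and among the 3 highest for 7. APP/PS1 mice 17, 18 and 19 were among the 3 lowest for 4, 5 and 4 genes, and among the 3 highest for 2, 1 and 0. NTG mouse 7 was among the 3 lowest for 3 genes and among the 3 highest for 2. Shares of all genes for places among the 3 lowest or highest are not given here.

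**Figure D1:**
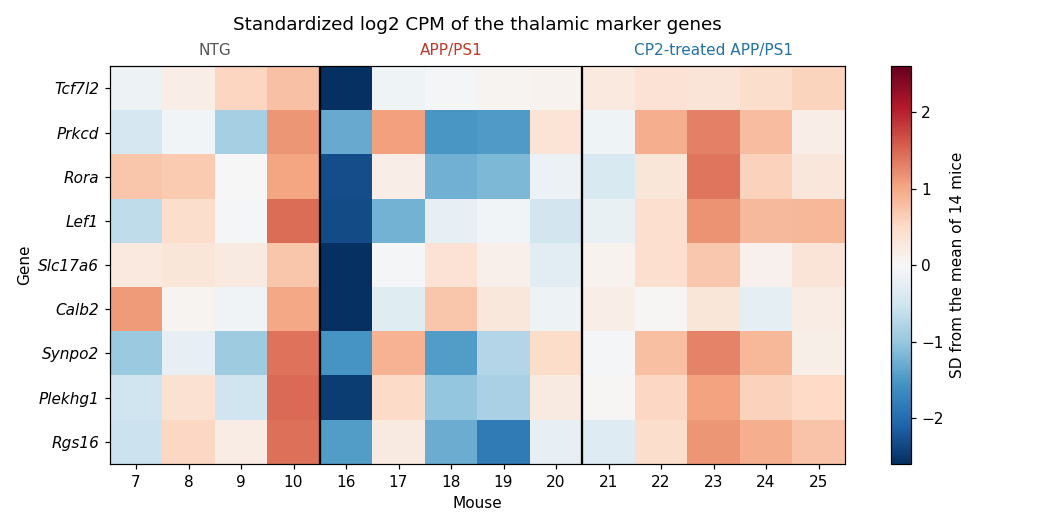
Heat map of the 9 thalamic marker genes (rows) in the 14 mice (columns, by mouse number, groups parted by black lines), coloured by log2 CPM as SD from the gene's mean over the 14 mice. Mouse 16 is blue in every row and darkest for Tcf7l2, Slc17a6 and Calb2, and mouse 10 is red in every row.

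The 9 genes were lower on average in APP/PS1 than in NTG mice and higher on average with CP2 than with vehicle among APP/PS1 mice, but no single difference had an adjusted p under 0.05 in edgeR's quasi-likelihood test in any of the 3 comparisons. DESeq2 called 1 of the 9, Rora, as lower in the first comparison (3.47% of all genes) and none in the other two (0.14% and 10.2% of all genes called there in both directions). The vehicle-treated APP/PS1 mice enter the first and second comparison, so a low value in them moves both, and the NTG and CP2-treated mice each enter a pair of comparisons as well. In a bulk sample, fewer cells of a type and less RNA per cell cannot be told apart.

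For APP/PS1 against NTG all 9 log2 fold changes were below 0, with a median of -0.48 against -0.00421 over all 16417 genes tested. None of the 9 had an adjusted p under 0.05, where 5.68% of all genes did. Before adjustment 2 of the 9, Rora and Rgs16, had p under 0.05 as lower in APP/PS1 mice, where 8.05% of all genes did in that direction and 18.7% in both directions. Without mouse 16 the 9 changes were still below 0, with a median of -0.28, and Rora, Rgs16 and Tcf7l2 had an unadjusted p under 0.05 (9.43% of all genes in that direction), and none an adjusted one (8.92% of all genes). Without NTG mouse 10, 7 were below 0 and 2, Prkcd and Synpo2, above it, with a median of -0.36. Without mice 16 and 10 the same 2 genes were above 0, and the median was -0.16. In no gene did the 2 groups part without overlap, with or without mouse 16, while 9.97% and 15.2% of all genes parted. The ribosomal RNA-like share was lowest in mouse 16, and with its log2 value as a covariate the median of the 9 was -0.23 with 0 genes at an unadjusted p under 0.05 (4.95% of all genes as lower).

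For CP2 against vehicle in APP/PS1 mice all 9 log2 fold changes were above 0, with a median of 0.57 against -0.00597 over all 16407 genes. None had an adjusted p under 0.05, and only 0.00609% of all genes, 1 gene, did. Before adjustment 4 of the 9, Rgs16, Lef1, Rora and Plekhg1, had p under 0.05 as higher with CP2 (2.88% of all genes in that direction, 6.55% in both). Without mouse 16 the median was 0.39, Calb2 turned to -0.05, and Tcf7l2 joined those 4 genes (4.25% of all genes in that direction), again with none past adjustment (0.00606% of all genes). With the ribosomal RNA-like share as a covariate the median was 0.32, and 2 genes had an unadjusted p under 0.05 (1.92% of all genes as higher).

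For APP/PS1 with CP2 against NTG 6 genes were above 0 and 3 below, with a median of 0.08, and none had p under 0.05 before or after adjustment (20.2% and 6.02% of all genes did). No gene parted these groups without overlap, while 9.73% of all genes did. Leaving out 1 NTG mouse moved this in either direction. Without mouse 7, 2 genes were above 0 and 7 below, with a median of -0.04 and none at an unadjusted p under 0.05. Without mouse 10, 7 genes were above 0, and 3 of them, Synpo2, Prkcd and Plekhg1, had an unadjusted p under 0.05 (10.2% of all genes in that direction). Synpo2 alone passed adjustment, higher with CP2 by 0.73 (SE 0.17, adjusted p = 0.0453 by edgeR), as 2.97% of all genes did in that direction.

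**Figure D2:**
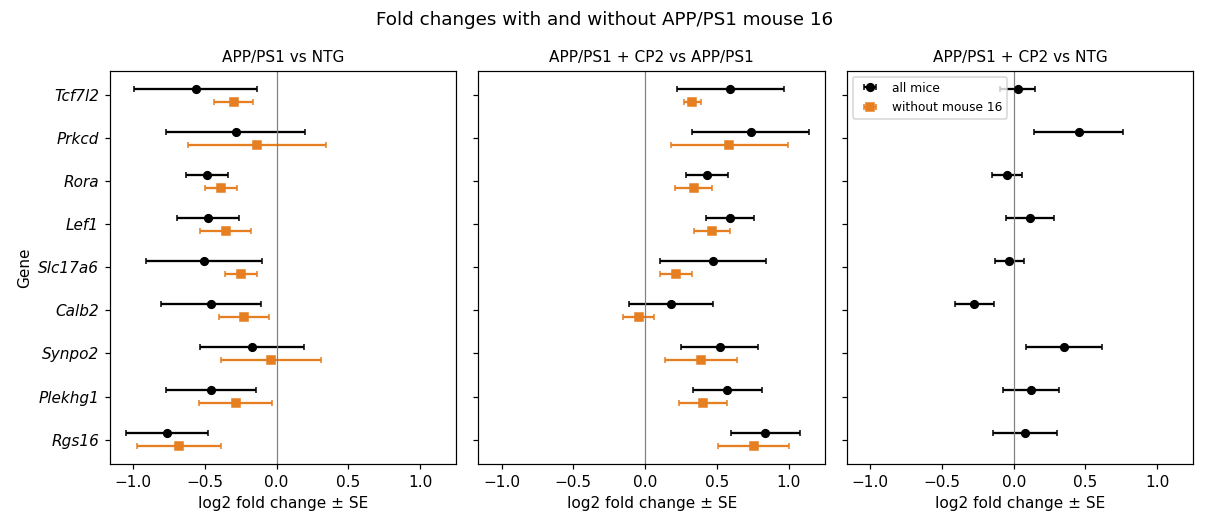
Log2 fold change (x axis, ± SE from the edgeR fit) of each gene (y axis) in the 3 comparisons, with all mice in black circles and without APP/PS1 mouse 16 in orange squares. All 9 black points lie below 0 for APP/PS1 vs NTG and above 0 for CP2 vs vehicle, and the orange points lie nearer to 0, past it for Calb2 with CP2.

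Tcf7l2, the Wnt-linked transcription factor of thalamic neurons, showed the sharpest contrast between mouse 16 and the rest. The NTG mice 7, 8, 9 and 10 had 31.4, 37.2, 46 and 51.4 CPM. Mouse 16 had 5.29 CPM, and APP/PS1 mice 17, 18, 19 and 20 had 31.6, 32.7, 35.03 and 35.7 CPM. CP2-treated mice 21 to 25 had 38.8, 41.8, 41.0, 43.6 and 46.7 CPM. Every CP2-treated mouse was thus above every vehicle-treated APP/PS1 mouse, a separation seen in 1.18% of all genes (2.93% without mouse 16), and NTG mice overlapped both groups. Mouse 16 widened the spread of its group from an SD of 1.915 CPM to one of 12.8 CPM. With it, the log2 fold change with CP2 was 0.59 (SE 0.37, adjusted p = 0.763), and without it 0.33 (SE 0.06, unadjusted p = 0.000218, adjusted p = 0.209). DESeq2 without mouse 16 gave the same size, 0.33, with an adjusted p of 0.000723, a call it made for 0.152% of all genes in that direction. Against NTG mice Tcf7l2 stood in APP/PS1 mice at -0.56 (SE 0.43, adjusted p = 0.545) on the log2 scale, and at -0.30 (SE 0.13, adjusted p = 0.224) without mouse 16.

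Lef1, the relative of Tcf7l2 whose inner start region is printed above, ranged from 8.21 to 15.1 CPM in NTG mice. APP/PS1 mice 16 to 20 had 5.10, 6.99, 9.37, 9.73 and 8.68 CPM, and CP2-treated mice 21 to 25 had 9.44, 11.3, 13.9, 12.69 and 12.75 CPM. The CP2-treated mice overlapped the vehicle-treated ones through mouse 21 alone. The log2 fold change with CP2 was 0.59 (SE 0.17, unadjusted p = 0.00481, adjusted p = 0.744), and 0.47 (SE 0.13, adjusted p = 0.408) without mouse 16. DESeq2 without mouse 16 put its adjusted p at 0.0521. Against NTG mice the change in APP/PS1 mice was -0.48 (SE 0.22, adjusted p = 0.27), -0.35 (SE 0.18) without mouse 16 and -0.28 (SE 0.20) without mouse 10.

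Rora had the smallest p of the 9 genes between APP/PS1 and NTG mice. The NTG mice had 161.3, 159.8, 137.1 and 172.8 CPM. APP/PS1 mice 16 to 20 had 81.5, 142.3, 103, 105.2 and 132.4 CPM, with 1 of the 5, mouse 17, above the lowest NTG mouse. The log2 fold change was -0.48 (SE 0.15, unadjusted p = 0.00827, adjusted p = 0.0969), and -0.39 (SE 0.11, adjusted p = 0.0647) without mouse 16. DESeq2 called Rora lower in APP/PS1 mice at an adjusted p of 0.0171, and of 0.0101 without mouse 16, among 3.47% and 4.96% of all genes that it called lower. In edgeR it passed without mouse 17 (adjusted p = 0.0437), as 0.991% of all genes did in that direction. CP2-treated mice 21 to 25 had 125.4, 146.9, 187.4, 156.9 and 146.3 CPM, a change of 0.43 (SE 0.15, unadjusted p = 0.0141) from vehicle-treated APP/PS1 mice, 0.34 (SE 0.13) without mouse 16, and of -0.05 (SE 0.10) from NTG mice.

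Slc17a6, the vesicular glutamate transporter of relay neurons, had its lowest level in mouse 16 and its highest in mouse 10. NTG mice 7 to 10 had 118.2, 122, 117 and 150.4 CPM. Mouse 16 had 18.8 CPM, and APP/PS1 mice 17 to 20 had 101.2, 125.6, 111.4 and 89.9 CPM. CP2-treated mice ranged from 108.8 to 149.2 CPM, with a median of 122.8 CPM. All 3 groups overlapped. Against NTG the APP/PS1 mice differed by -0.51 (SE 0.41, adjusted p = 0.574), and by -0.25 (SE 0.11, adjusted p = 0.228) without mouse 16. With CP2 it was 0.47 (SE 0.37, adjusted p = 0.804), and 0.21 (SE 0.11, adjusted p = 0.542) without mouse 16. Its cortical relative Slc17a7, named here after its values were seen, stood at 781.6 CPM in mouse 16, within the 649.5 to 952.9 CPM of the other mice. The sum of the 13 cortical layer genes was highest in mouse 16, at 685.4 CPM against at most 632 CPM elsewhere. Of these genes mouse 16 was the highest for 3 and the lowest for 2.

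Calb2 was the gene least like the others. NTG mice 7 to 10 had 89.4, 59.6, 55.9 and 85.6 CPM, mouse 16 had 16.9 CPM, and APP/PS1 mice 17 to 20 had 51.2, 76.9, 65 and 54.7 CPM. CP2-treated mice lay close together between 52.4 and 65.2 CPM. Mouse 16 aside, every CP2-treated mouse lay within the range of the vehicle-treated ones. The log2 fold change with CP2 was 0.18 (SE 0.29, adjusted p = 0.903) with mouse 16 and -0.05 (SE 0.11, adjusted p = 0.901) without it. Against NTG mice it was -0.45 (SE 0.35, adjusted p = 0.549) in APP/PS1 mice, -0.23 (SE 0.18, adjusted p = 0.503) without mouse 16, and -0.27 (SE 0.13, adjusted p = 0.285) with CP2.

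**Figure D3:**
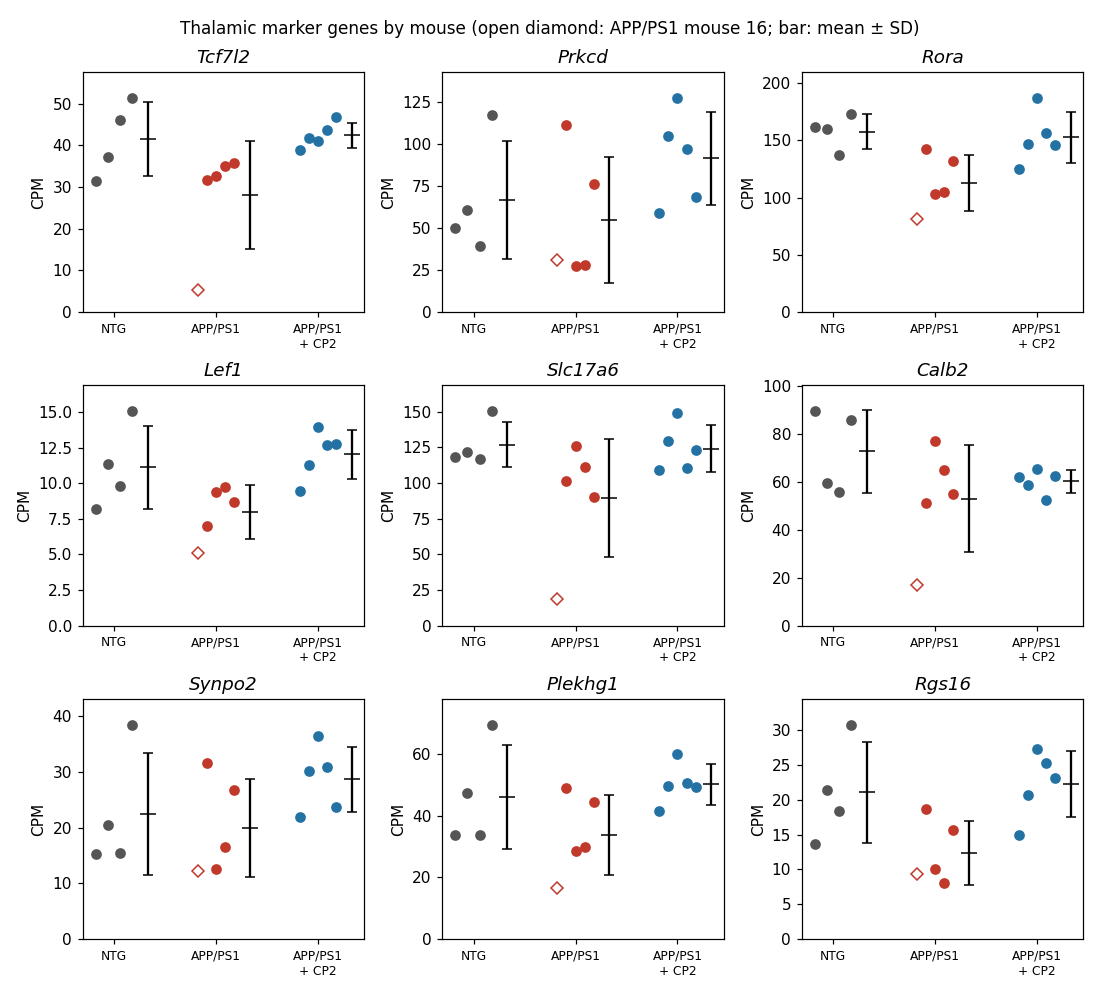
CPM (y axis, from 0) of each gene in NTG, APP/PS1 and CP2-treated APP/PS1 mice (x axis), 1 point per mouse, with the group's mean ± SD beside the points and mouse 16 as an open diamond. Tcf7l2, Slc17a6 and Calb2 show mouse 16 far below every other mouse, at 5.29, 18.8 and 16.9 CPM, while Prkcd and Rgs16 show it among other APP/PS1 mice.

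Prkcd, the kinase gene whose start region is printed above, varied widely within every group. NTG mice 7 to 10 had 49.9, 60.7, 39.2 and 117.5 CPM. APP/PS1 mice 16 to 20 had 30.9, 111.6, 27.5, 28.2 and 76.2 CPM, 3 mice near 30 CPM and mouse 17 close to the top of the range. CP2-treated mice 21 to 25 had 59.2, 104.7, 127.9, 97.3 and 68.8 CPM. The log2 fold change with CP2 was 0.73 (SE 0.41, adjusted p = 0.749), and 0.59 (SE 0.41, adjusted p = 0.64) without mouse 16, so that the spread among the other APP/PS1 mice remained. Against NTG mice Prkcd differed by -0.28 (SE 0.48, adjusted p = 0.813) in APP/PS1 mice, a value that became -0.14 (SE 0.48) without mouse 16, 0.15 (SE 0.49) without NTG mouse 10 and 0.29 (SE 0.47) without both.

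Rgs16 had the largest log2 fold change of the 9 genes in both comparisons with APP/PS1 mice. NTG mice had 13.6, 21.4, 18.4 and 30.8 CPM, and APP/PS1 mice 16 to 20 had 9.40, 18.7, 10.1, 8.06 and 15.7 CPM. CP2-treated mice 21 to 25 had 14.9, 20.6, 27.3, 25.2 and 23.1 CPM. Of the CP2-treated mice only mouse 21 lay within the vehicle-treated range. The log2 fold change was -0.76 (SE 0.29, unadjusted p = 0.0246, adjusted p = 0.183) against NTG and 0.84 (SE 0.24, unadjusted p = 0.00519, adjusted p = 0.744) with CP2. Without mouse 16 these were -0.68 (SE 0.30) and 0.76 (SE 0.25), so Rgs16 moved less on leaving out that mouse than Tcf7l2 or Slc17a6.

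Synpo2 and Plekhg1 followed Prkcd from mouse to mouse. Synpo2 ranged from 15.3 to 38.5 CPM in NTG, from 12.3 to 31.6 CPM in vehicle-treated and from 21.9 to 36.5 CPM in CP2-treated mice. Plekhg1 ranged from 33.8 to 69.6 CPM, from 16.6 to 49.0 CPM and from 41.5 to 59.99 CPM in the same groups. Both had their highest level in mouse 10 and their lowest in mouse 16. With CP2 Synpo2 differed by 0.52 (SE 0.27, adjusted p = 0.749) and Plekhg1 by 0.57 (SE 0.24, unadjusted p = 0.0356, adjusted p = 0.744), and without mouse 16 by 0.39 (SE 0.25) and 0.40 (SE 0.17). Between APP/PS1 and NTG mice Synpo2 differed by -0.17 (SE 0.36, adjusted p = 0.851), a value that became -0.04 without mouse 16, 0.24 without mouse 10 and 0.35 without both. Plekhg1 differed by -0.45 (SE 0.31, adjusted p = 0.501), which became -0.28 (SE 0.25) without mouse 16, -0.17 (SE 0.31) without mouse 10 and -0.02 (SE 0.21) without both. With mouse 10 left out, Synpo2 in CP2-treated mice did not overlap the 3 remaining NTG mice, and 14.4% of all genes did not.

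Across the 14 mice the 9 genes varied together, and leaving out mouse 16 split them. The 36 pairs had Pearson r of log2 CPM between 0.24 and 0.96 (median 0.73, Spearman median 0.62). Without mouse 16 the median r was 0.51, the lowest -0.27, and 31 of 36 pairs stayed above 0. With the group means taken out the median was 0.66, and 0.38 without mouse 16. These are descriptions, since the values of a pair come from the same libraries and share their depth and tissue piece.

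Prkcd, Synpo2, Plekhg1 and Rgs16 moved together with or without mouse 16. Prkcd and Synpo2 had r = 0.96 over 14 and over 13 mice, Plekhg1 and Rgs16 0.88 and 0.91, and Rora and Rgs16 0.87 in both. Tcf7l2 and Lef1 likewise kept r = 0.81 and 0.82. Tcf7l2 and Slc17a6 went from 0.96 to 0.50 without mouse 16, and Tcf7l2 and Calb2 from 0.86 to -0.05. Against the mean of the other 8 genes Plekhg1 had r = 0.97 over 14 mice and 0.95 without mouse 16, while Calb2 had 0.65 and -0.08. Of the 9 genes Calb2 thus had the lowest r with the others, with and without mouse 16.

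**Figure D4:**
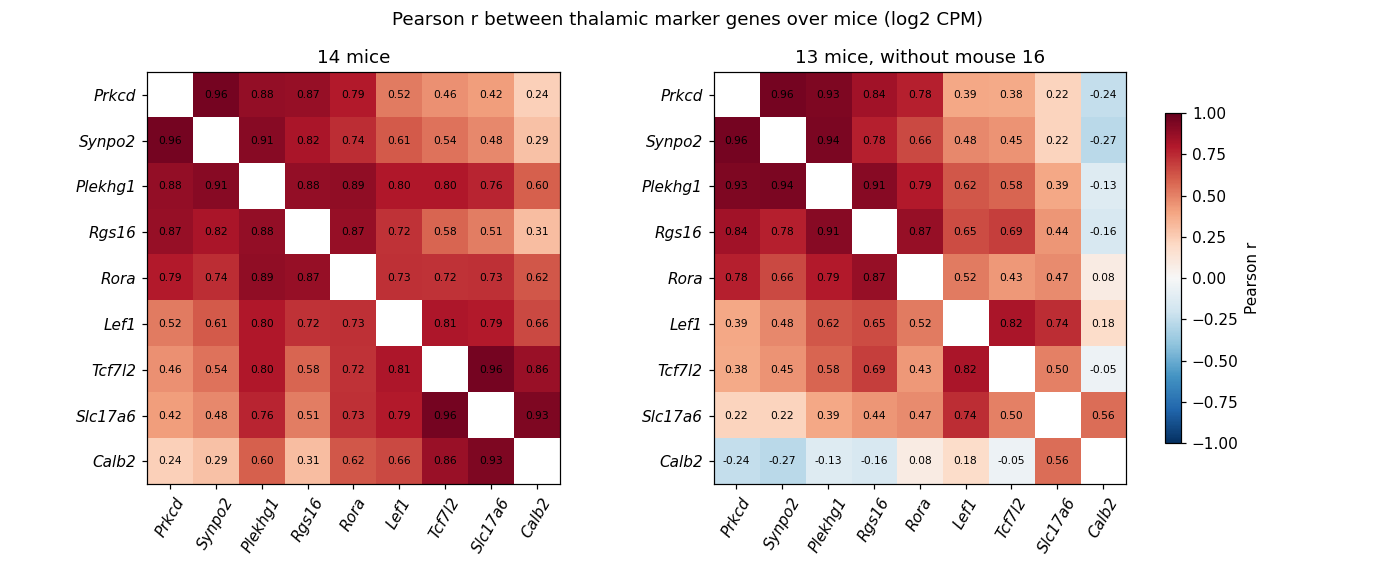
Pearson r of log2 CPM between each pair of the 9 genes over 14 mice (left) and over the 13 mice without mouse 16 (right), printed in each cell. The block of Prkcd, Synpo2, Plekhg1, Rgs16 and Rora stays red in both panels (0.66 to 0.96 on the right), and the Calb2 row turns pale or blue on the right except with Slc17a6 (0.56).

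The genes most like the 9 over the 14 mice were sought among 16512 others, by Pearson r with the mean of the standardized log2 CPM of the 9 genes. Hcn4, a channel of the pacemaker current, came first (r = 0.97, 0.94 without mouse 16), then Ntng1, a netrin of thalamocortical axons (0.97 and 0.92), and Wnt9b, a Wnt ligand (0.97 and 0.92). Ccdc136, Zmat4, Adamts15, Nrip3, Tspan33, Akap2 and Palm2Akap2 followed with r from 0.96 to 0.92, of which the last 2 are overlapping genes. Without the mice farthest from the median, 10 and 16, these 10 genes kept r of 0.76 to 0.92. Hcn4 stood at 4.13 CPM in mouse 16 and at 6.83 CPM or more elsewhere, and Ntng1 at 20.3 CPM against 41.3 CPM or more. The lowest r belonged to Stard10 (-0.91), Lrrc40, Dhrs7, Tmod1 and Crybg3 (-0.87), each of which had its highest level in mouse 16.

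All 16 genes of a list of other thalamic markers were tested. For APP/PS1 against NTG 15 of the 16 were below 0 with a median log2 fold change of -0.35, 0 had an adjusted p under 0.05 and 2 an unadjusted p under 0.05 as lower (8.05% of all genes). These were Gbx2, a homeobox gene of the developing thalamus (-1.14, SE 0.31, adjusted p = 0.0606), and Adarb1, an RNA-editing enzyme (-0.29, SE 0.09, adjusted p = 0.106). With CP2 14 of 16 were above 0 with a median of 0.40, 0 passed adjustment and 7 had an unadjusted p under 0.05 as higher (2.88% of all genes), led by Adarb1 (0.27, SE 0.07) and the cell-surface gene Slitrk6 (0.64, SE 0.20), both at an adjusted p of 0.744. Without mouse 16 the medians were -0.27 and 0.26, with 4 and 9 genes at an unadjusted p under 0.05 (9.43% and 4.25% of all genes). With the ribosomal RNA-like share as a covariate 3 and 1 had one (4.95% and 1.92% of all genes). For CP2-treated mice against NTG the median was 0.03 and 1 gene, Tnnt1 (0.32, SE 0.12, adjusted p = 0.156), had an unadjusted p under 0.05, ahead of Amotl1 (0.23, SE 0.13), while without mouse 10 the median was 0.12, 3 genes had one and 1 passed adjustment (2.97% of all genes).

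The transcription factor genes Shox2 and Lhx9 on that list, chosen here after their values were seen, were close to 0 in mouse 16. Shox2 had 0.274 CPM there and between 10.5 and 23.7 CPM in the other 13 mice, and Lhx9 0.434 CPM against 8.09 to 17.65 CPM. Mouse 16 was the lowest mouse for 10 of the 16 genes (18% of all genes), but the highest for Nexn. The sum of the 16 genes was 544.5 CPM in mouse 16 and 613.3 to 944.9 CPM in the others.

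Of 9 channel genes that shape the burst and tonic firing of relay neurons, all were below 0 in APP/PS1 against NTG mice, with a median of -0.15, 0 past adjustment and 2 with an unadjusted p under 0.05 as lower (8.05% of all genes). The median was -0.13 without mouse 16 and -0.07 without mouse 10. The 2 genes were the potassium channel Kcnk3 (-0.28, SE 0.07, adjusted p = 0.0584) and the T-type calcium channel Cacna1g (-0.24, SE 0.07, adjusted p = 0.0883). With CP2 8 of 9 were above 0, with a median of 0.10 and 3 at an unadjusted p under 0.05 as higher (2.88% of all genes), and Cacna1g had the smallest p (0.26, SE 0.05, adjusted p = 0.529 by edgeR), followed by Kcnk9 (0.33, SE 0.09, adjusted p = 0.744). Cacna1g stood at 97.2 to 114.4 CPM in vehicle-treated and at 121.1 to 130.5 CPM in CP2-treated APP/PS1 mice, without overlap, as 1.18% of all genes did. Against NTG the CP2-treated mice had a median of -0.000205, with Kcnk3 at -0.16 and Kcnk9 at 0.18.

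The Wnt pathway, in which Tcf7l2 and Lef1 act, held genes that passed adjustment. Of 21 genes 19 were tested, and 3 fell in APP/PS1 against NTG mice while none rose (5.68% of all genes passed in both directions). The count of 3 became 1 without mouse 10 and 1 with the ribosomal RNA-like share as a covariate. The share of all genes that passed in these fits is not given here, so the drop is not a result about the Wnt genes. Lgr6, a receptor for R-spondins, fell by 1.502 on the log2 scale (SE 0.18, adjusted p = 0.0011), from 7.23 ± 1.11 CPM (SD, 4 mice) to 2.55 ± 0.617 CPM (5 mice). Nkd1, a feedback inhibitor, fell by 0.55 (SE 0.12, adjusted p = 0.0272), and Axin2, a feedback inhibitor and common readout of the pathway, fell by 0.32 (SE 0.08, adjusted p = 0.0395). All 3 passed without mouse 16. There, named after their values were seen, Fzd1, a Wnt receptor, fell (-0.33, adjusted p = 0.0264) and Lrp5, a co-receptor, rose (0.37, adjusted p = 0.0305).

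Axin2 was even in vehicle-treated APP/PS1 mice, at 18.7 to 20.3 CPM, including 20.3 CPM in mouse 16, and stood at 20.8 to 27.1 CPM in NTG mice. With CP2 no Wnt gene passed adjustment, and Axin2 (0.20, SE 0.05, unadjusted p = 0.00282) and Lgr6 (0.44, SE 0.20, unadjusted p = 0.0476) had the smallest p. Lgr6 and Nkd1 also passed with CP2 against NTG, as 6.02% of all genes did in both directions. In that comparison Lgr6 fell by 1.06 (adjusted p = 0.00352) and Nkd1 fell by 0.53 (adjusted p = 0.0207). The count of 2 became 1 without mouse 10, a fit whose share of all genes passing as lower is not given here. The median change over the 19 genes was -0.04, 0.07 and 0.03 in the 3 comparisons.

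Of 21 family relatives of the 9 genes 20 were tested. For APP/PS1 against NTG 10 were above and 10 below 0, with a median of 0.02, and Plekhg2, another exchange factor, rose (0.56, SE 0.11, adjusted p = 0.0151) where Plekhg1 did not pass. Rgs5, a pericyte gene related to Rgs16, stood at 0.54 (SE 0.18, adjusted p = 0.14). With CP2, against NTG mice, Rgs5 rose by 0.81 (SE 0.09, adjusted p = 0.000495) and Plekhg2 rose by 0.54 (SE 0.11, adjusted p = 0.0154). This count of 2, where 6.02% of all genes passed in both directions, became 1 without mouse 10, where 2.97% passed as higher. With CP2 the median was -0.02 and no relative had p under 0.05, the smallest belonging to Rorb (0.19, SE 0.10) and Calb1 (-0.14, SE 0.07). Without mouse 16 both medians turned, to -0.05 and 0.03, and 2 relatives had an unadjusted p under 0.05 as higher with CP2 (4.25% of all genes).

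Levels of neighbouring brain regions were set beside the thalamic genes. The sum of the 9 genes was 196.8 CPM in mouse 16 and 409.1 to 731.6 CPM in the other mice, with group medians of 530.5 in NTG, 426.3 in APP/PS1 and 580.2 CPM with CP2. The striatal sum in mouse 16 was 8.02 times the median of the others, and all 10 striatal genes tested had their highest level there. The share of all genes with their highest level in mouse 16 is not given here. The adenosine receptor Adora2a, a marker of striatal projection neurons, had 114.3 CPM in mouse 16 and at most 11.1 CPM elsewhere. Mouse 16 thus combined the lowest thalamic sum with the highest striatal sum. The part of its tissue piece in the group differences was not tested.

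With mouse 16 the 10 striatal genes were all above 0 in APP/PS1 against NTG mice (median 1.83) and all below 0 with CP2 (median -1.48). Without it the medians were 0.14, with 1 gene lower past adjustment (8.92% of all genes in both directions), and 0.26. The smallest p belonged to Drd1 (2.15, SE 0.87, adjusted p = 0.217) and Adora2a (3.13, SE 1.35, adjusted p = 0.245) in the first comparison and to Drd1 (-1.81, SE 0.77) and Ppp1r1b (-1.44, SE 0.72) in the second. Without mouse 16 these were 0.44 for Drd1 and 0.32 for Adora2a in the first, and -0.09 for Drd1 and 0.11 for Ppp1r1b, whose direction turned, in the second. Against NTG, with CP2, 8 of 10 were above 0 with 0 past adjustment (6.02% of all genes). Before adjustment 2 had p under 0.05, among them Drd2 (0.36, SE 0.15), as 20.2% of all genes did in both directions.

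Choroid plexus genes, which lie in the ventricles beside the thalamus, varied widely between mice. Their 7 genes summed to 25.3 CPM in mouse 9, 27.4 in mouse 16 and 42.6 in mouse 19, and to 1361 CPM in mouse 17. No choroid plexus gene had p under 0.05 in any comparison, the smallest belonging to Otx2, Kl and Aqp1. In APP/PS1 against NTG mice Otx2 stood at -0.59 (SE 0.42) and Kl at -0.33 (SE 0.67), with CP2 at 0.37 (SE 0.38) and 0.39 (SE 0.56), and for CP2-treated mice against NTG Otx2 stood at -0.21 (SE 0.19) and Aqp1 at 0.46 (SE 0.62). Without mouse 16 Otx2 stood at -0.34 and Kl at -0.07 in the first comparison, and at 0.12 and 0.13 with CP2. Their part in the thalamic values was not tested.

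The habenula, which adjoins the thalamus and also uses Tcf7l2, had 3 of its 5 tested genes lowest in mouse 16 (18% of all genes). Named after their values were seen, Pou4f1 stood there at 0.0572 CPM, Irx2 at 0.217 CPM and Chrna3 at 0.835 CPM, against at least 0.615, 3.71 and 1.65 CPM in the other mice. The sum of its 8 genes, 63.1 CPM in mouse 16 and 51.5 to 75.8 CPM elsewhere, was carried there by Nwd2 (37.2 CPM) and Slc5a7 (22.8 CPM, at most 7.29 CPM elsewhere). Chrna3, a nicotinic receptor subunit of the habenula, stood at -0.88 (SE 0.28, adjusted p = 0.114) in APP/PS1 against NTG mice and at 0.53 (SE 0.24, adjusted p = 0.744) with CP2. Slc5a7 stood at 0.88 (SE 0.77) and -0.81 (SE 0.66), and both directions turned without mouse 16, to -0.14 and 0.22, where Chrna3 stood at -0.70 and 0.35. For CP2-treated mice against NTG Chrna3 stood at -0.36 (SE 0.17) and Irx2 at -0.24 (SE 0.15). The sum of 11 hypothalamic genes was highest in CP2-treated mice 23 and 22, at 117.9 and 68.6 CPM, and lay at 7.79 to 35.5 CPM in the other 12. Pmch alone gave 58.95 and 40.2 CPM of these 2 sums. Of the 5 hypothalamic genes tested, mouse 23 was the highest for 1, mouse 22 for 0 and mouse 17 for 2. None passed adjustment with all mice, and 2 rose for CP2-treated mice against NTG without mouse 10 (2.97% of all genes as higher), with Trh at 1.29 (SE 0.56) and Hdc at 0.47 (SE 0.31) in APP/PS1 against NTG mice, Otp at 0.87 (SE 0.63) and Nkx2-1 at -0.21 (SE 0.45) with CP2, the last of which turned to 0.18 without mouse 16, where Nkx2-1 had its highest level, and Trh at 1.24 (SE 0.44) and Nkx2-1 at 1.16 (SE 0.47) for CP2-treated mice against NTG. Mouse 23, among the highest for 7 of the 9 thalamic genes, thus also had the highest hypothalamic sum, and the part of this in the thalamic values was not tested.

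**Figure D5:**
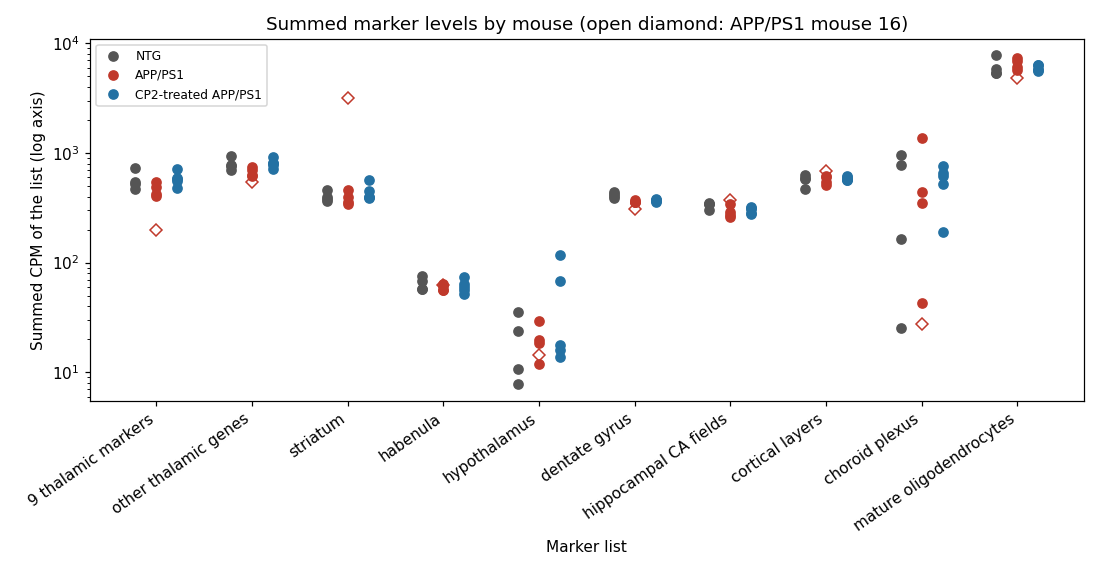
Summed CPM (y axis, log scale) of marker lists (x axis) in each mouse, coloured by group, with mouse 16 as an open diamond. Mouse 16 is the lowest point for the 9 thalamic markers (196.8 CPM) and the highest for striatum (3178 CPM), and choroid plexus spans 25.3 to 1361 CPM.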

How the data were processed

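RNA from a brain piece of each of 14 mice was sequenced (Illumina TruSeq libraries, paired ends). The authors aligned reads to mm10 with TopHat and used featureCounts with Ensembl annotation, where a read counted for every gene it overlapped. The strand setting is not given in the sources used here. The deposited table holds these raw counts for 43346 genes (8959 without a count) and RPKM values, which the authors scaled by coding length. RPKM served only for the order of levels.

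Groups came from the sample labels. Each pair of groups was fitted alone with edgeR 4.0.16 (R 4.3.3, quasi-likelihood test, TMM factors) on genes above 1 CPM in every mouse of at least 1 group, with Benjamini-Hochberg adjustment over all genes and a threshold of 0.05. Printed CPM use TMM factors over the 14 mice, and log2 CPM a prior count of 2. The SE of a fold change was derived from the test's F value. Nothing in the labels ties samples to litters, cages or days, and p-values measure the spread between mice taken as independent. The paper states that mice were housed together in cages and that CP2 was given in drinking water. An effect of a shared cage cannot be told apart from one of treatment here. The 26 replicate pairs differed by more than counting noise (chi-square per degree of freedom 10.5 or more).

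Alternatives were DESeq2 1.42.0, limma 3.58.1 (voom with quality weights), RLE and upper-quartile factors, no filter, at least 10 counts in every mouse, 1 fit of all 3 groups, the ribosomal RNA-like share as covariate, and leaving out each mouse. Fits without mice 16 and 10 together, and DESeq2 without mouse 16, were chosen after seeing the data. Named genes were the 9 genes, the 2 smallest p per list and comparison, and the 10 highest and 5 lowest correlations, and a few genes that this rule names are not reported here. The 9 genes and all lists (other thalamic genes, firing channels, Wnt pathway, family relatives, habenula, striatum, hypothalamus, choroid plexus, hippocampal, cortical and cell type markers) were chosen with earlier results of these data known. Fits were tested on simulated data.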

Additional observations from a re-analysis of the deposited data

Results flagged for a closer look

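Among 27 sets of 1 gene in 1 group, 2 held a mouse far from the rest of its group by Dixon's ratio, which chance alone passes in about 1 of 20 sets. Tcf7l2 in APP/PS1 mouse 16 stood at 5.294 CPM, with the nearest mouse of its group at 31.6 CPM, a gap of 0.866 of the group's range, past Dixon's critical value for 5 mice. Slc17a6 in NTG mouse 10 stood at 150.4 CPM, with the nearest at 122 CPM, a gap of 0.852 of the range, also past its critical value for 4 mice.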

How the results depend on the processing

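No paired analysis was possible because the groups share no mouse number. Of the alternatives for single genes, 469 kept direction and side of the threshold, 21 turned the direction and 5 newly passed it. For APP/PS1 against NTG the count past adjustment went from 0 to 1 with DESeq2, with or without mouse 16, and lay between 0 and 1 on leaving out single mice. The unadjusted count went from 2 to 0 with the ribosomal RNA-like share, 1 without mice 16 and 10, and 4 with DESeq2 without mouse 16 (1 to 3 on leaving out single mice). With CP2 against vehicle the adjusted count went from 0 to 1 with DESeq2 without mouse 16, and the unadjusted count from 4 to 2 with the ribosomal RNA-like share. For CP2-treated mice against NTG the unadjusted count went from 0 to 1 with DESeq2 and with no filter, and lay between 0 and 3 on leaving out single mice, the adjusted count between 0 and 1. The cause of these shifts was not tested.

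Direction turned for these genes. For APP/PS1 against NTG, Prkcd went to 0.2871 and Synpo2 to 0.3548 without mice 16 and 10, and on leaving out single mice they ranged from -0.7163 to 0.1511 and from -0.4005 to 0.2368. With CP2 against vehicle, Calb2 went to -0.1435 with the ribosomal RNA-like share and -0.04261 with DESeq2 without mouse 16, and ranged from -0.04554 to 0.3523. For CP2-treated mice against NTG, Tcf7l2 went to -0.02706 and Rgs16 to -0.03402 with limma-voom. On leaving out single mice Tcf7l2 ranged from -0.08357 to 0.1356, Rora from -0.1329 to 0.01485, Lef1 from -0.00751 to 0.2842, Slc17a6 from -0.1065 to 0.04744, Plekhg1 from -0.001795 to 0.3777 and Rgs16 from -0.08407 to 0.3089.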

Other observations

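Markers of other regions and cell types in the same libraries are given here as values. Their counts stand beside shares of all genes in both directions, for APP/PS1 against NTG, CP2 against vehicle and CP2-treated mice against NTG. In this order 5.68%, 0.00609% and 6.02% of all genes passed adjustment, and 18.7%, 6.55% and 20.2% had an unadjusted p under 0.05. Without mouse 16 the first 2 adjusted shares were 8.92% and 0.00606%. For CP2-treated mice against NTG without mouse 10, 2.97% of all genes passed as higher. No other adjusted share without mouse 10, nor one with the ribosomal RNA-like share as a covariate, is given here. Changed counts in those fits are thus not results about a list. All 7 microglial genes rose in APP/PS1 against NTG mice (median log2 fold change 1.05), among them the growth factor receptor Csf1r (1.05, SE 0.09, edgeR adjusted p = 0.000175), and all 7 did so without mouse 16. With CP2 against vehicle all 7 were below 0 with none past adjustment and 1 at an unadjusted p under 0.05 (C1qa -0.46, Tmem119 -0.15), and for CP2-treated mice against NTG 5 of 7 rose, among them C1qa (1.28, SE 0.12).

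Of 8 dentate gyrus genes all were below 0 in APP/PS1 against NTG mice, and 1, Tdo2, fell (-1.17, SE 0.23, adjusted p = 0.0144), with Dsp at -1.03 (adjusted p = 0.0501). Without mouse 16, which was lowest for 5 of the 8 (18% of all genes), both fell, and with the ribosomal RNA-like share as a covariate 0 did. With CP2 Dsp stood at 0.61 and Prox1 at 0.40, neither past adjustment (0.44 and 0.22 without mouse 16), and for CP2-treated mice against NTG Tdo2 (-0.89, adjusted p = 0.00345) and C1ql2 (-0.51, adjusted p = 0.0428) fell, a count of 2 that became 1 without mouse 10. Of 7 genes of the CA fields none passed in the 3 comparisons. Before adjustment 2, 1 and 4 had p under 0.05, as 18.7%, 6.55% and 20.2% of all genes did. Fibcd1 stood at -0.91 (adjusted p = 0.066) and Neurod6 at -0.39 in the first comparison, and Fibcd1 fell without mouse 16 (-0.73, adjusted p = 0.00535). Fibcd1 stood at 0.57 and Pou3f1 at -0.15 with CP2 (-0.06 for Pou3f1 without mouse 16), and Neurod6 at -0.33 and Pou3f1 at -0.27 for CP2-treated mice against NTG. Of 13 cortical layer genes none passed with all mice (1 in each comparison had an unadjusted p under 0.05), the smallest p belonging to Rprm (0.48) and Rorb (-0.22), to Rasgrf2 (0.11) and Rorb (0.19), and to Rprm (0.27) and Nxph4 (0.26) in the 3 comparisons. Rprm rose without mouse 16 (0.58, adjusted p = 0.0141).

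Among glial and vascular genes, Cldn11 of oligodendrocytes rose (0.46, adjusted p = 0.00366), Slc1a2 of astrocytes fell (-0.41, adjusted p = 0.0442) and Pecam1 of endothelium rose (0.40, adjusted p = 0.00965) in APP/PS1 against NTG mice. These were 1 of 9, 1 of 7 and 1 of 7 genes tested, where 5.68% of all genes passed in both directions. No astrocyte gene passed as lower without mouse 10 or with the ribosomal RNA-like share as a covariate. Without mouse 16, 1 astrocyte gene rose and 1 fell, and 3 endothelial genes rose. With all mice Ugt8a (-0.15), Gja1 (-0.24) and Slc2a1 (0.28) came next without passing. Without mouse 16 Ugt8a stood at -0.04, and Slc2a1 passed (0.32, edgeR adjusted p = 0.00699). With CP2 against vehicle none of the 3 lists had a gene past adjustment, and 1, 1 and 0 genes had an unadjusted p under 0.05. The smallest p belonged to Cldn11 (-0.17) and Mobp (-0.18), Slc1a3 (-0.16) and Gjb6 (-0.13), and Ly6c1 (-0.21) and Flt1 (0.18). For CP2-treated mice against NTG 1 oligodendrocyte gene rose (Cldn11, 0.30), 1 astrocyte gene rose and 2 fell (Gjb6, -0.32, and Slc1a2, -0.31), and 3 endothelial genes rose, led by Flt1 (0.33) and Pecam1 (0.31). Without mouse 10 the counts were 0 oligodendrocyte genes, 1 astrocyte gene (lower) and 1 endothelial gene. Of 7 pan-neuronal genes none passed in any comparison (0, 0 and 1, Rbfox3 at -0.15, had an unadjusted p under 0.05), and their medians were -0.03, 0.03 and -0.000443.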
